A study of Mus musculus with 56 samples.

Results

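In mammary tumor cells carrying 1 β-catenin ΔC allele beside 1 floxed allele (ΔC/fl), 4 days of TGFβ at 2 ng/ml were followed by higher RNA of several matrix-degrading enzymes, matrix proteins and contractile proteins. Lower RNA was found for many epithelial junction proteins and for many transcription and splicing factors of epithelial cells. The samples compared were ΔC/fl cells with TGFβ, replicates 1 and 2, and ΔC/fl cells kept untreated for the same experiment, replicates 1 and 2, so 2 stood against 2. They come from a series of 56 RNA samples in 28 conditions, in which β-catenin cell lines were given either Wnt3a (3 days, 100 ng/ml) or TGFβ for 4 days, each with untreated cells of its own. The lines came from mammary tumors of 12-week-old female MMTV-PyMT transgenic mice on the FVB/N background, a transgene in which the mouse mammary tumor virus promoter drives the polyoma middle T oncogene. Every line compared here shares that transgene. Another 3 genotypes of the same experiment serve as a comparison: fl/fl cells with 2 floxed alleles and no mutant allele, ΔC/- cells with the ΔC allele alone, and D164A/fl cells with the D164A point mutation, which abolishes the binding of the co-activators Bcl9 and Bcl9l, beside a floxed allele. D164A/-, dm/fl and dm/- cells of the experiment entered the model but were not compared. The samples of the Wnt3a experiment entered it too. The deposited texts do not say what the ΔC allele lacks. Their description of the treatment speaks of Pygo2 lines, while the titles and genotype labels of the same samples name β-catenin alleles; the titles and genotypes were followed here.

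The paper mentions 2 independent fl/fl lines for a reporter assay and gives no number of lines for ΔC/fl cells, so genotype and line cannot be told apart. By its methods, lines with a mutant allele alone were made from floxed lines by adenoviral Cre and sorting for GFP. A virus without Cre was the control, and the sample titles do not say whether ΔC/fl cells received it. In the comparison with ΔC/- cells, the lost allele and these steps cannot be told apart. The series text calls the replicates biological duplicates, and the labels do not say whether they are different lines or different cultures of 1 line. With 2 replicates a condition, the p-values rest on the spread between replicates. That spread was estimated for each gene over all 56 samples in 28 conditions, those of the Wnt3a experiment included. A gene near 0 in other conditions can therefore have a small p-value although its ΔC/fl replicates differ. A gene uneven elsewhere can have a large one although its ΔC/fl replicates are close. The deposited value of a gene is a signal that the authors obtained by dividing its read count by an effective library size, here in M reads and therefore written as CPM (counts per M). The reads behind it numbered 24.7 and 30.1 M in the untreated samples and 23.8 and 24.2 M with TGFβ. At that depth 1 read stood for 0.0317 to 0.0486 CPM, and a value under 3 reads carries no level.

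TGFβ ligands bind a pair of serine/threonine kinase receptors, which phosphorylate Smad2 and Smad3; these enter the nucleus with Smad4 and change transcription together with other factors. In mammary epithelial cells a lasting TGFβ signal can bring about an epithelial-mesenchymal transition (EMT), in which junctions and apical-basal polarity are lost and matrix, protease and cytoskeletal genes are turned on. β-catenin links E-cadherin to the actin cytoskeleton at adherens junctions, and in the nucleus it is the co-activator of Lef/Tcf factors at the end of the canonical Wnt pathway.

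The gene of β-catenin itself, Ctnnb1, had 2030.1 and 1463 CPM untreated and 1288 and 1108 CPM with TGFβ. The TGFβ samples lay below the untreated ones without overlap, with a log2 fold change of -0.53 (adjusted p = 0.208, not called). The counts do not tell the ΔC transcript from that of the floxed allele.

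As a check of the cell type, the markers of 7 cell classes were looked up. All 4 mammary epithelial markers, Epcam, Krt8, Krt18 and Cdh1, were present, with a summed level of 1590 and 2115 CPM untreated and 1147 and 1512 CPM with TGFβ and Krt8 as the most abundant over the 4 samples together. Of 7 luminal markers, 5 and 5 had at least 3 reads in the untreated samples, Gata3 was the most abundant, and Pgr was at 0 in all 4 samples. Krt19, another luminal keratin, had at most 0.0952 CPM. The basal markers were led by Krt14 in untreated cells and by Acta2 with TGFβ, while Krt5 stayed at or under 0.0952 CPM. Endothelial markers summed to at most 1.4 CPM and adipocyte markers to at most 0.128 CPM. Of the leukocyte markers, Adgre1 was at 0 in all 4 samples and Ptprc at most 0.0973 CPM, and Cd68 was the most abundant over the 4 samples together.

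Fibroblast markers were not near 0 in these cells. The 7 genes summed to 778 and 318 CPM in the untreated samples and 504 and 418 CPM with TGFβ, 6 of 7 with at least 3 reads in every sample. Pdgfrb, a receptor for platelet-derived growth factors, was the most abundant, while Lum, Dpt and Dcn stayed at or under 1.92 CPM. In the untreated samples of the other genotypes the same sum was 11.2 and 5.58 CPM in fl/fl, 9.86 and 9.22 CPM in ΔC/- and 68.5 and 61.7 CPM in D164A/fl cells. It also differed between the ΔC/fl replicates, replicate 1 having the higher sum in both conditions, while in the Wnt3a experiment replicate 2 had it, with 108 and 446 CPM in untreated ΔC/fl cells and 78 and 271 CPM with Wnt3a. In bulk RNA, fewer cells of a type and less RNA per cell cannot be told apart, and a part of fibroblast-like cells in any result below was not tested. By the methods, fibroblasts had been taken out of the cultures with trypsin when the lines were made.

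The replicates also differed in genes of cell division. Of 37 tested genes of DNA replication and mitosis, 34 were higher in replicate 2 than in replicate 1 among the untreated samples, with a median difference of 1.81 on the log2 scale, and 33 with TGFβ, with a median difference of 1.58. The proliferation marker Mki67, for instance, had 118 and 524 CPM untreated and 38.6 and 271 CPM with TGFβ. Over all 13754 genes the same median differences were -0.0035 and -0.0008. Correlations of log2 values were 0.979 between the untreated samples, 0.981 between the TGFβ samples, and 0.933 to 0.956 across the treatment. The 10 most abundant genes took 5.98% and 4.83% of the reads untreated and 9.6% and 6.98% with TGFβ.

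Across the transcriptome, 1064 of 13754 genes (7.74%) were called, that is, they reached an adjusted p of at most 0.05 and a log2 fold change of at least 1 in either direction in limma, p being adjusted by Benjamini-Hochberg across 13754 genes. Of these, 446 genes (3.24%) were higher with TGFβ and 618 (4.49%) were lower. The median log2 fold change over all genes was 0.02. Fold changes were computed on log2(CPM + 1), so they understate the change of genes at low levels. Without ΔC/fl TGFβ replicate 1 the number called was 605, and without any 1 of the other 3 samples it was 754 to 956. The picture of all genes shows the calls spread over the whole range of levels, with Mmp12 and Inmt at the far ends.

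**Figure D1:**
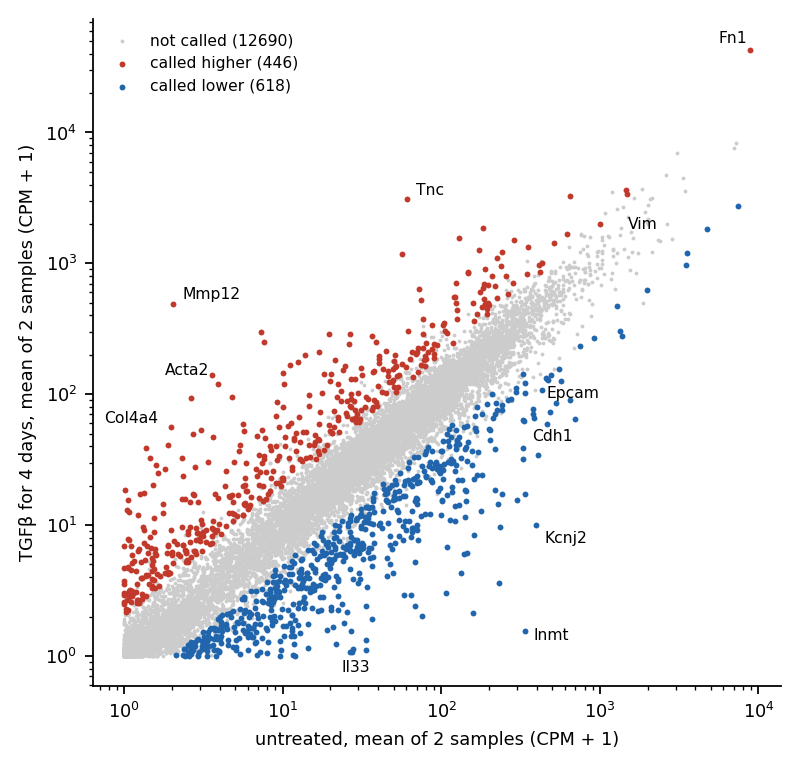
Mean CPM + 1 of every tested gene in ΔC/fl cells, untreated (horizontal) against TGFβ for 4 days (vertical), both on log axes, each the mean of 2 samples. Red and blue points are genes called higher and lower; a few genes of the text are named.

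The largest rise was that of Mmp12, a matrix metalloproteinase that cleaves elastin, with 1.44 and 0.635 CPM untreated and 719.6 and 261 CPM with TGFβ. Both TGFβ samples stood more than 100 times above both untreated ones, replicate 1 the higher. The log2 fold change was 7.77 (adjusted p = 7.47e-11). Mmp10, also named stromelysin 2, had 6.56 and 6.73 CPM untreated and 325 and 171 CPM with TGFβ (log2 fold change 4.96). Mmp13, a collagenase, had 26.5 and 10.5 CPM untreated and 372 and 201 CPM with TGFβ (log2 fold change 3.95, adjusted p = 0.00161). For each of these genes the groups lay far apart, and TGFβ replicate 1 was again above replicate 2. Mmp13 missed the call without untreated replicate 2 (adjusted p = 0.0542).

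These 3 genes lie in a single stretch of chromosome 9 that holds 10 genes of matrix metalloproteinases within 0.427 Mb. Mmp3, between Mmp12 and Mmp10, had 26.4 and 14 CPM untreated and 54.8 and 79.6 CPM with TGFβ and was not called (log2 fold change 1.73, adjusted p = 0.255), although its groups did not overlap. The other 6 genes of the stretch, Mmp1a, Mmp1b, Mmp7, Mmp8, Mmp20 and Mmp27, stayed under 1 CPM in all 4 samples. Of these 6 only Mmp1b reached 3 reads in a sample, with 0.04 and 0.191 CPM untreated and 0.389 and 0.681 CPM with TGFβ, and it was not called.

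Because the 3 genes moved together, the 250 bases before their first annotated start are shown, from the RefSeq promoter table (build GRCm38.p6, all on the plus strand, at chr9:7502092-7502341 for Mmp10, chr9:7272264-7272513 for Mmp13 and chr9:7344147-7344396 for Mmp12). Capitals mark the letters TGANTCA, the AP-1 site, searched on both strands; Mmp10 and Mmp13 each hold 1, starting 63 and 35 bases before the start, and the window of Mmp12 holds none.
Mmp10: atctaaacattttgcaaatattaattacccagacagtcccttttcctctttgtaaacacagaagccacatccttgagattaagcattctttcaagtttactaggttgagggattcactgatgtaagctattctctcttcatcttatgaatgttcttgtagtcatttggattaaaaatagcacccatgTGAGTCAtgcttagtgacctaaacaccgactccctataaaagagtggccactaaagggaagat
Mmp13: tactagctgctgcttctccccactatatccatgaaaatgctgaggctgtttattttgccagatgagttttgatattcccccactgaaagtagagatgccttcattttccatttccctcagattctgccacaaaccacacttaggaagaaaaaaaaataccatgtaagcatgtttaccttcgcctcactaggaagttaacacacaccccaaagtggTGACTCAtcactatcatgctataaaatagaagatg
Mmp12: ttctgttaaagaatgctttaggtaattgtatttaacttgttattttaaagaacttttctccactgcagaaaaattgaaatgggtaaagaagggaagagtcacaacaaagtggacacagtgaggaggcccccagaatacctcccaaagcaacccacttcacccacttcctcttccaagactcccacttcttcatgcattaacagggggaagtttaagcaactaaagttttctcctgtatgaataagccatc

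Of 27025 genes in the promoter table, 6.85% of windows of this length hold the letters. Among the genes of this response with an entry they were found in 34 of 315 genes called higher (10.8%), in 34 of 454 called lower (7.49%) and in 465 of 10060 tested and not called (4.62%). In the list of proteases and inhibitors they were in 2 of 5 genes called higher, 0 of 4 called lower and 4 of 10 not called, Mmp3 among the last. A match is a description of the letters and says nothing of what binds there.

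Of 30 tested genes for matrix proteases and their inhibitors, 11 were called higher and 4 lower (50%, against 7.74% of all genes). Their median log2 fold change was 1.01, against 0.02 over all genes. Mmp9, a gelatinase encoded on another chromosome, had 12.1 and 10.9 CPM untreated and 206 and 144 CPM with TGFβ (log2 fold change 3.80). Plau, the secreted protease urokinase, had 103 and 141 CPM untreated and 747 and 242 CPM with TGFβ (log2 fold change 1.81). The groups of each gene were apart, and for Plau the distance rested on TGFβ replicate 1, with replicate 2 much nearer to the untreated cells. Plau missed the call without untreated replicate 1 (adjusted p = 0.124) or TGFβ replicate 1 (0.473). Adamts16, a secreted metalloproteinase of the ADAMTS family, had 0.4 and 0.127 CPM untreated and 24.6 and 8 CPM with TGFβ (log2 fold change 3.60). It went from under 0.5 CPM to a clear level in both TGFβ samples.

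Among matrix glycoproteins and crosslinking enzymes, 10 of 42 genes were called higher and 4 lower (33.3%, against 7.74% of all genes). Their median was 0.45. Tnc, the adhesion-modulating glycoprotein tenascin C, had 64.6 and 55.7 CPM untreated and 4175 and 2001 CPM with TGFβ, a log2 fold change of 5.57 (adjusted p = 1.2e-07). Ccn4, a matricellular protein also known as Wisp1, had 72.7 and 38.1 CPM untreated and 1645 and 727 CPM with TGFβ (log2 fold change 4.35). Both genes had a level before treatment and rose in both replicates without overlap. Fibronectin, Fn1, had 12203 and 5358 CPM untreated and 56772 and 29337 CPM with TGFβ (log2 fold change 2.34, adjusted p = 0.015). It was already among the most abundant RNAs of untreated cells, and its TGFβ samples were the highest values quoted here. Fbn1, for the microfibril protein fibrillin 1, had 190.2 and 54.1 CPM untreated and 985 and 437 CPM with TGFβ (log2 fold change 2.68). Loxl2, a lysyl oxidase that crosslinks collagen, had 0.12 and 0.0317 CPM untreated and 9.24 and 4.17 CPM with TGFβ (log2 fold change 2.76), so its untreated level was at or under a few reads. Fn1 missed the call without untreated replicate 2 (adjusted p = 0.271) or TGFβ replicate 1 (0.259) and Fbn1 without untreated replicate 2 (0.0906) or TGFβ replicate 1 (0.0593).

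In the other direction, Spp1, the secreted phosphoprotein osteopontin, had 3680.2 and 3291 CPM untreated and 848 and 1089 CPM with TGFβ (log2 fold change -1.86). Thbs1, the matrix protein thrombospondin 1 that can activate latent TGFβ, had 9126 and 5650.2 CPM untreated and 3223 and 2227 CPM with TGFβ (log2 fold change -1.42). Both fell in both replicates. Spp1 missed the call without untreated replicate 1 (adjusted p = 0.11), untreated replicate 2 (0.0742) or TGFβ replicate 1 (0.168) and Thbs1 without untreated replicate 1 (0.212) or TGFβ replicate 2 (0.152).

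Collagen genes changed in both directions, 8 of 25 higher and 3 lower (44%, against 7.74% of all genes), with a median of 0.85. Col5a3, a chain of fibrillar collagen V, had 5.76 and 6.82 CPM untreated and 472 and 124 CPM with TGFβ (log2 fold change 5.07, adjusted p = 4.22e-07). The chains α3 and α4 of basement membrane collagen IV rose together: Col4a3 had 0.68 and 0.222 CPM untreated and 38.5 and 24.2 CPM with TGFβ (log2 fold change 4.46). Col4a4 had 1.44 and 0.508 CPM untreated and 72.3 and 37.1 CPM with TGFβ (log2 fold change 4.78). Both chains were under 1.5 CPM in untreated cells and clear in both TGFβ samples. These genes stand head to head on chromosome 1, and their annotated ends overlap by 114 bases; the methods do not state whether counting used the strand, so reads in that short stretch cannot be assigned, while the genes run over more than 100 kb each. Col4a6, a chain of the same family encoded on the X chromosome, went the other way, with 75.6 and 91.4 CPM untreated and 8.41 and 14 CPM with TGFβ (log2 fold change -2.82).

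Collagen VI was split by chain. Col6a1 had 969.7 and 321 CPM untreated and 91.7 and 86.4 CPM with TGFβ (log2 fold change -2.63). Col6a2 had 271 and 89.3 CPM untreated and 25.4 and 21.3 CPM with TGFβ (log2 fold change -2.69). Col6a3 had 5.72 and 8.95 CPM untreated and 29.1 and 49.6 CPM with TGFβ (log2 fold change 2.26). The first 2 chains fell in both replicates, from untreated values that differed about 3 times between replicates, and the α3 chain rose. Col7a1, for the anchoring fibril collagen, had 7 and 9.49 CPM untreated and 115 and 57.3 CPM with TGFβ (log2 fold change 3.17). The chains of the interstitial collagens I and III, which are also fibroblast markers, rose: Col1a1 had 7.6 and 4.25 CPM untreated and 70.9 and 23 CPM with TGFβ (log2 fold change 2.63), and Col3a1 had 34.8 and 7.84 CPM untreated and 184 and 51.8 CPM with TGFβ (log2 fold change 2.47, adjusted p = 0.0297). For Col3a1 replicate 2 with TGFβ was only moderately above replicate 1 untreated. Col6a1 missed the call without untreated replicate 1 (adjusted p = 0.373), TGFβ replicate 1 (0.139) or TGFβ replicate 2 (0.117), Col6a2 without untreated replicate 1 (0.387), TGFβ replicate 1 (0.135) or TGFβ replicate 2 (0.148), Col7a1 without TGFβ replicate 1 (0.0813), Col1a1 without TGFβ replicate 1 (0.121) and Col3a1 without untreated replicate 2 (0.524) or TGFβ replicate 1 (0.526). With edgeR on whole reads, Col3a1, Col6a1, Col6a2 and Col6a3 were not called.

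The integrins, receptors for these matrix proteins, were exchanged more than raised. Of 20 tested, 4 were called higher and 4 lower (40%, against 7.74% of all genes), with a median of -0.02. Itga5, the fibronectin receptor chain, had 191 and 173 CPM untreated and 2618 and 1134 CPM with TGFβ (log2 fold change 3.24). Itgb3, the β chain of vitronectin receptors, had 1.96 and 0.698 CPM untreated and 31.4 and 31.2 CPM with TGFβ (log2 fold change 3.85). Itga2, a chain of a collagen receptor, had 0.84 and 0.667 CPM untreated and 12.5 and 14.4 CPM with TGFβ (log2 fold change 3.04). Itga8, partner of the β1 chain, had 76.1 and 59 CPM untreated and 3.6 and 4.89 CPM with TGFβ (log2 fold change -3.71) and fell, as did Itga6 and Itgb4, which together form the laminin receptor of hemidesmosomes (-1.80 and -2.09). Itga6 missed the call without untreated replicate 2 (adjusted p = 0.0714) or TGFβ replicate 1 (0.139) and Itgb4 without untreated replicate 1 (0.0579), untreated replicate 2 (0.367), TGFβ replicate 1 (0.154) or TGFβ replicate 2 (0.185).

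Of 28 tested genes of actin filaments and contraction, 8 were called higher and 2 lower (35.7%, against 7.74% of all genes). The median was 0.90, and the largest of these rises came from low levels. Acta2, α-smooth muscle actin, had 3.16 and 2.67 CPM untreated and 189 and 50 CPM with TGFβ, a log2 fold change of 4.65 (adjusted p = 1.34e-08). Tagln, the actin-binding protein transgelin, had 0.72 and 1.08 CPM untreated and 66.5 and 13.1 CPM with TGFβ (log2 fold change 4.03). Actg2, γ-smooth muscle actin, had 1.44 and 2.7 CPM untreated and 79.5 and 25.1 CPM with TGFβ (log2 fold change 3.93). In each of these the replicates shared the direction and differed in size, TGFβ replicate 1 being about 3 to 5 times replicate 2. Kcnmb1, the β1 subunit of the large-conductance potassium channel of smooth muscle, which was picked after its values were seen, had 0.84 and 0.444 CPM untreated and 34 and 14.4 CPM with TGFβ (log2 fold change 3.83) and showed the same order of the TGFβ samples.

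Myl9, the regulatory light chain of myosin, had 14.8 and 18.6 CPM untreated and 129.7 and 74.5 CPM with TGFβ (log2 fold change 2.50). Palld, the actin-bundling protein palladin, had 82.3 and 63.7 CPM untreated and 658 and 399 CPM with TGFβ (log2 fold change 2.81). Cnn2, calponin 2, had 213 and 223 CPM untreated and 750.4 and 583 CPM with TGFβ (log2 fold change 1.60, adjusted p = 0.042). These had a clear level before treatment and rose less than the smooth muscle actins. Cnn2 missed the call without untreated replicate 1 (adjusted p = 0.181), untreated replicate 2 (0.165), TGFβ replicate 1 (0.308) or TGFβ replicate 2 (0.0906). With edgeR neither Myl9 nor Cnn2 was called.

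**Figure D2:**
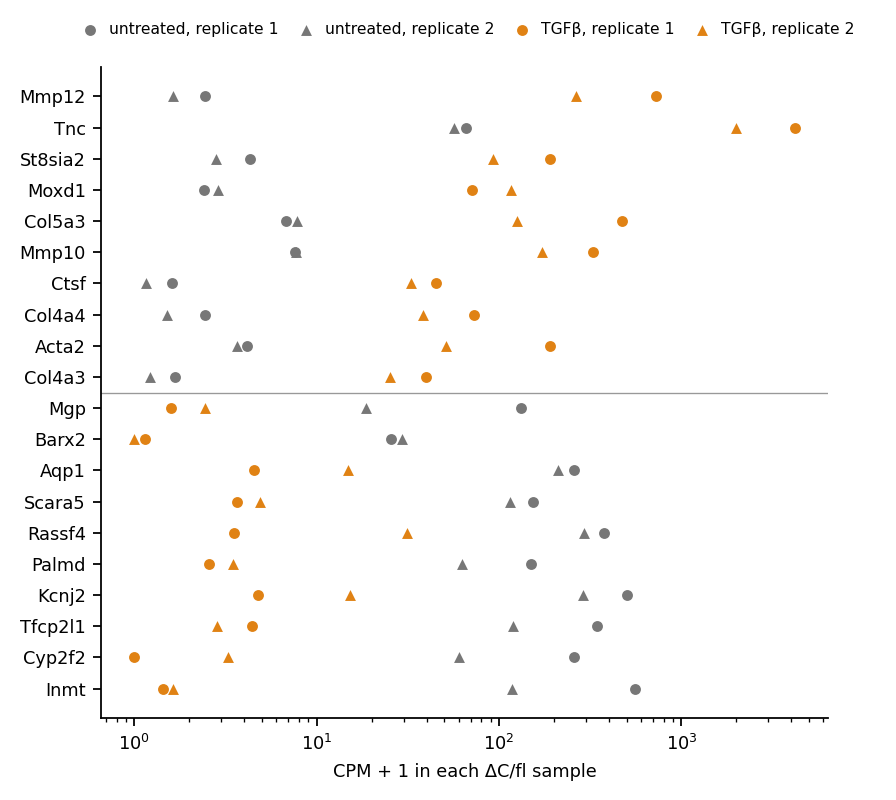
CPM + 1 of the 10 largest increases (upper) and the 10 largest decreases (lower) on a log axis, 1 point for each ΔC/fl sample. Gray points are untreated and orange points TGFβ; in every gene the colors are apart, and the distance between replicates is largest for genes such as Mgp and Rassf4.

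Other genes among the 10 largest rises have no part in matrix or contraction. St8sia2, a sialyltransferase that makes polysialic acid on the cell adhesion molecule NCAM, had 3.32 and 1.81 CPM untreated and 188 and 91.2 CPM with TGFβ (log2 fold change 5.24, adjusted p = 8.08e-17). Its standard error of 0.247 was shared with conditions near 0, such as ΔC/- cells, so the p-value says little of the ΔC/fl replicates. Moxd1, a monooxygenase related to dopamine β-hydroxylase, had 1.4 and 1.87 CPM untreated and 69.6 and 115 CPM with TGFβ (log2 fold change 5.11). Ctsf, the lysosomal protease cathepsin F, had 0.6 and 0.159 CPM untreated and 44.1 and 31.7 CPM with TGFβ (log2 fold change 4.82). All were low in untreated cells, and for Moxd1 replicate 2 was the higher TGFβ sample, unlike for the proteases.

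Of 38 tested genes of epithelial junctions and polarity, 19 were called lower, 1 was called higher and 18 were not called. The share called was 52.6%, against 7.74% of all genes. The median log2 fold change was -1.63 against 0.02 over all genes. Cdh1, E-cadherin, had 324 and 335 CPM untreated and 73.4 and 49.9 CPM with TGFβ, a log2 fold change of -2.43 (adjusted p = 3.77e-06). Epcam, an adhesion molecule of epithelial cells, had 369 and 388 CPM untreated and 76.8 and 75.3 CPM with TGFβ, a log2 fold change of -2.30 (adjusted p = 9.24e-07). Replicates of these genes were close, and every treated value was less than 1 in 4 of any untreated value. The tight junction genes Cldn7 and Ocln had 58.7 and 81.4 CPM untreated and 8.32 and 4.94 CPM with TGFβ and 51.7 and 48.2 CPM untreated and 5.01 and 7.53 CPM with TGFβ respectively, with log2 fold changes of -3.24 and -2.83.

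Desmosome and envelope genes took part as well. Ppl, the plakin periplakin, had 169 and 268 CPM untreated and 5.11 and 29.8 CPM with TGFβ (log2 fold change -3.96), the largest fall of the list. Evpl, its partner envoplakin, had 82.9 and 201 CPM untreated and 13.1 and 21.4 CPM with TGFβ (log2 fold change -2.87). Dsp, desmoplakin, had 491 and 619 CPM untreated and 153 and 155 CPM with TGFβ (log2 fold change -1.83). The replicates of Ppl and Evpl were further apart than those of Dsp. Evpl missed the call without untreated replicate 2 (adjusted p = 0.279), TGFβ replicate 1 (0.214) or TGFβ replicate 2 (0.0515). Ap1m2, an adaptor subunit that sorts proteins to the basolateral membrane, had 38.9 and 53.8 CPM untreated and 3.26 and 4.89 CPM with TGFβ (log2 fold change -3.22). Pkp2, the desmosomal plakophilin 2, was the only gene of the list called higher, with 52.8 and 65.5 CPM untreated and 174 and 147 CPM with TGFβ (log2 fold change 1.43). Of 17 tested keratins only Krt14, of basal cells, was called (5.88%, against 7.74% of all genes). It had 242 and 571 CPM untreated and 38.6 and 27.7 CPM with TGFβ (log2 fold change -3.47, adjusted p = 0.0237). Krt14 missed the call without untreated replicate 2 (adjusted p = 0.253), TGFβ replicate 1 (0.101) or TGFβ replicate 2 (0.137).

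The regions before 3 of the fallen junction genes are shown because many of these genes carry the same short motif. Their 250 bases lie at chr17:87635729-87635978 (plus strand) for Epcam, chr3:88548280-88548529 (minus strand) for Rab25, a small GTPase of apical recycling, and chr17:57061951-57062200 (plus strand) for Crb3, an apical polarity protein (RefSeq, GRCm38.p6). Capitals mark the E-boxes CACCTG and CAGGTG, each the other read on the opposite strand; Epcam and Rab25 hold 2 each and Crb3 holds 3.
Epcam: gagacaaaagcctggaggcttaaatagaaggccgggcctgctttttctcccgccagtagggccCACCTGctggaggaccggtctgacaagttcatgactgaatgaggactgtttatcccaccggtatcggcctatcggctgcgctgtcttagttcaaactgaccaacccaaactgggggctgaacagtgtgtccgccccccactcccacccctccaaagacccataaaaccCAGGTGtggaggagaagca
Rab25: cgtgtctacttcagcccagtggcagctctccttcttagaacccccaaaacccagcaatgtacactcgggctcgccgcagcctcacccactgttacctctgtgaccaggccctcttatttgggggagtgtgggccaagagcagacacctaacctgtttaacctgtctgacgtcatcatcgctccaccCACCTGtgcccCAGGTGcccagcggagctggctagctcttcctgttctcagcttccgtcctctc
Crb3: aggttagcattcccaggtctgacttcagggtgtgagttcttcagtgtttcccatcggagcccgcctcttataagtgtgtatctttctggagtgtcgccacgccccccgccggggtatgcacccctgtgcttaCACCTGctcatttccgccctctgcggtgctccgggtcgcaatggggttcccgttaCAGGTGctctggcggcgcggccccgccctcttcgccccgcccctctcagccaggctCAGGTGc

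These E-boxes were in the window of 4624 of 27025 genes (17.1%). In the junction list they were in 6 of 12 genes called lower that have an entry, and equally in 6 of 10 genes tested and not called, so within the list they did not separate the genes that fell. Over all tested genes they were in 25.3% of those called lower, 18.1% of those called higher and 14.8% of those not called. Rab25 fell with a log2 fold change of -2.78 and Crb3 with -1.94. Crb3 missed the call without untreated replicate 2 (adjusted p = 0.286) or TGFβ replicate 1 (0.386).

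Of the factors that keep the epithelial state, 15 of 21 tested were called lower (71.4%, against 4.49% of all genes). The median of the list was -1.90. Of the grainyhead-like factors, which hold up epithelial gene programs, Grhl2 had 107 and 129 CPM untreated and 22.4 and 37.7 CPM with TGFβ (log2 fold change -1.97). Grhl1 had 10.9 and 7.24 CPM untreated and 0.292 and 1.11 CPM with TGFβ (-2.59) and Grhl3 had 5.4 and 4.67 CPM untreated and 0.0973 and 0.128 CPM with TGFβ (-2.44). Grhl1 and Grhl3 came down to about 1 CPM or less, while Grhl2, the most abundant of the 3, kept a clear level. The splicing factors Esrp1 and Esrp2, which set epithelial exon choice, had 185 and 217 CPM untreated and 47.9 and 56.9 CPM with TGFβ and 23.1 and 38.3 CPM untreated and 5.54 and 6.13 CPM with TGFβ, with log2 fold changes of -1.92 and -2.17.

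Ehf, an ETS factor of epithelia, had 88.1 and 39.6 CPM untreated and 5.79 and 8.47 CPM with TGFβ (log2 fold change -2.91). Trp63, the p63 factor of basal cells, had 55.5 and 9.74 CPM untreated and 1.75 and 1.06 CPM with TGFβ (log2 fold change -3.37). Zfp750, a zinc finger factor downstream of p63, had 28.5 and 39.2 CPM untreated and 1.31 and 10.1 CPM with TGFβ (log2 fold change -2.76). The untreated values of Trp63 differed more than 5 times between the replicates, and both TGFβ values were under 2 CPM. The ovo-like repressors Ovol1 and Ovol2, which oppose EMT factors, had 3.4 and 6.57 CPM untreated and 0.389 and 0.723 CPM with TGFβ and 2.6 and 3.4 CPM untreated and 0.146 and 0.553 CPM with TGFβ, with log2 fold changes of -1.90 and -1.58 from low levels. Zfp750 missed the call without TGFβ replicate 1 (adjusted p = 0.239) and Ovol1 without untreated replicate 2 (0.105) or TGFβ replicate 1 (0.0636).

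**Figure D3:**
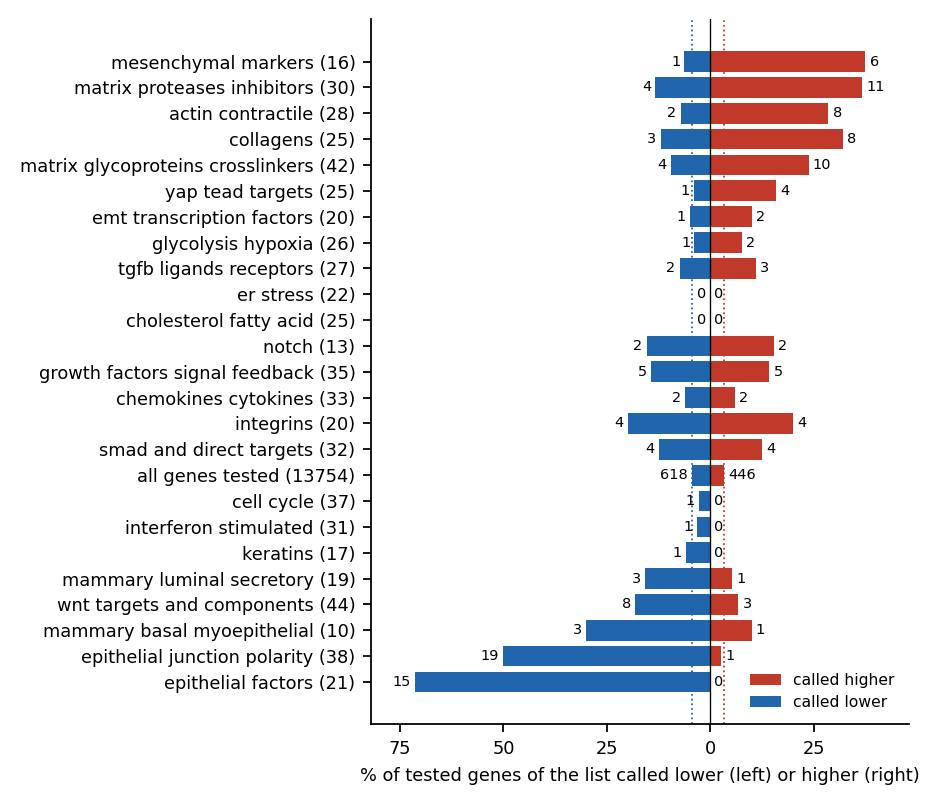
Share of each list's tested genes called higher (red, right) or lower (blue, left) in ΔC/fl cells, for the lists with at least 10 tested genes; the number tested is in brackets and the number called beside each bar. Dotted lines give the shares over all genes tested, and the epithelial lists at the bottom stand furthest to the left.

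The deepest falls lay outside these lists. Inmt, which N-methylates indoles such as tryptamine, had 553 and 117 CPM untreated and 0.438 and 0.638 CPM with TGFβ, a log2 fold change of -7.38 (adjusted p = 5.36e-09). Cyp2f2, a cytochrome P450, had 256 and 59.3 CPM untreated and 0 and 2.25 CPM with TGFβ (-6.11). Tfcp2l1, a grainyhead-family transcription factor, had 344 and 117 CPM untreated and 3.4 and 1.83 CPM with TGFβ (-5.84, adjusted p = 1.62e-11). Untreated replicate 1 was about 3 to 5 times replicate 2 in all 3, and yet both lay far above both TGFβ samples. The same Inmt RNA was also unequal in the untreated ΔC/fl cells of the Wnt3a experiment, with 1.04 and 42 CPM.

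Kcnj2, an inwardly rectifying potassium channel, had 502 and 286 CPM untreated and 3.79 and 14.2 CPM with TGFβ (log2 fold change -5.48). Aqp1, the water channel aquaporin 1, had 255 and 209 CPM untreated and 3.5 and 13.9 CPM with TGFβ (log2 fold change -4.83). Scara5, a scavenger receptor that takes up ferritin, had 152 and 113 CPM untreated and 2.67 and 3.91 CPM with TGFβ (log2 fold change -4.96). These membrane proteins were well expressed in both untreated samples and dropped more than 10 times in both treated ones. Palmd, the palmdelphin of the paralemmin family, had 149 and 61.8 CPM untreated and 1.56 and 2.47 CPM with TGFβ (log2 fold change -5.03). Rassf4, a Ras association domain protein, had 377 and 292 CPM untreated and 2.53 and 30.3 CPM with TGFβ (log2 fold change -4.98), and its TGFβ samples differed more than 10 times from each other.

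Barx2, a homeobox factor of epithelial and muscle development, had 24.6 and 28.3 CPM untreated and 0.146 and 0 CPM with TGFβ (log2 fold change -4.68). Mgp, the matrix Gla protein that inhibits calcification, had 131 and 17.7 CPM untreated and 0.584 and 1.45 CPM with TGFβ (log2 fold change -4.66). Il33, a cytokine of the interleukin 1 family, had 42.7 and 8.44 CPM untreated and 0 and 0.128 CPM with TGFβ (log2 fold change -4.26). The untreated replicates were close for Barx2, while Mgp and Il33 were about 5 to 7 times higher in untreated replicate 1. The TGFβ samples of all 3 had 1.5 CPM or less. Mme, the membrane peptidase CD10 of myoepithelial cells, had 227 and 93.1 CPM untreated and 4.33 and 10.6 CPM with TGFβ (log2 fold change -4.22).

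Within the TGFβ family itself, of 27 tested ligands, receptors and binding proteins 3 were called higher and 2 lower (18.5%, against 7.74% of all genes), with a median of 0.10. The receptor chain Tgfbr1 had 171 and 130.1 CPM untreated and 47.6 and 51.5 CPM with TGFβ and was not called (adjusted p = 0.187), although the groups did not overlap. Bmp4, a ligand of the bone morphogenetic protein branch, had 34.3 and 18 CPM untreated and 0.438 and 0.638 CPM with TGFβ (log2 fold change -4.08, adjusted p = 9.09e-08). Fst, follistatin, which traps activins, had 27.2 and 39.9 CPM untreated and 3.11 and 7.32 CPM with TGFβ (log2 fold change -2.54). Both fell, while the follistatin-like Fstl1 had 277 and 91.5 CPM untreated and 963 and 425 CPM with TGFβ (log2 fold change 2.00) and Fstl3 had 1.04 and 0.73 CPM untreated and 7.64 and 4.3 CPM with TGFβ (log2 fold change 1.85), and both of these rose. Acvrl1, the receptor ALK1, had 0.08 and 0.0635 CPM untreated and 2.53 and 1.74 CPM with TGFβ (log2 fold change 1.54), a rise from under 3 reads. Fst missed the call without TGFβ replicate 1 (adjusted p = 0.0509).

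Of 32 tested Smads and direct targets 4 were called higher and 4 lower (25%, against 7.74% of all genes), with a median of 0.26. Among the genes higher were Ccn2, connective tissue growth factor, with 903 and 388 CPM untreated and 5373 and 1162 CPM with TGFβ (log2 fold change 2.08), Bhlhe40, a basic helix-loop-helix repressor, with 204 and 110.2 CPM untreated and 695 and 297 CPM with TGFβ (1.59), and Tgif1, a Smad co-repressor, with 171 and 146 CPM untreated and 441 and 280.3 CPM with TGFβ (1.15). For Ccn2, TGFβ replicate 2 was close to untreated replicate 1. Ccn2 missed the call without untreated replicate 2 (adjusted p = 0.182) or TGFβ replicate 1 (0.455), Bhlhe40 without untreated replicate 2 (0.189) or TGFβ replicate 1 (0.318) and Tgif1 without untreated replicate 2 (0.145) or TGFβ replicate 1 (0.336). Of the genes lower, 3 were inhibitors of differentiation, which are targets of the bone morphogenetic protein branch. Id1 had 29.2 and 43 CPM untreated and 7.59 and 10.9 CPM with TGFβ (log2 fold change -1.85). Id2 had 87.6 and 59.2 CPM untreated and 10.5 and 10.8 CPM with TGFβ (log2 fold change -2.65). Id4 had 6.84 and 4.67 CPM untreated and 0.0973 and 0.468 CPM with TGFβ (log2 fold change -2.39). The ligand Bmp4 was lower in the same samples, and a link was not tested. In fl/fl cells Bmp4 was called lower (-1.63) and none of these 3 genes was. In ΔC/- cells Id1 and Id4 were called lower (-1.83 and -1.98), while Id2 and Bmp4 (-0.40) were not. In D164A/fl cells neither Bmp4 nor any of these 3 genes was called. A missed call is no test of a difference: that from fl/fl cells was called for Id4 (-1.84) and not for Id1 or Id2. Id1 missed the call without untreated replicate 2 (adjusted p = 0.125) or TGFβ replicate 1 (0.131).

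Of 3 genes that limit the pathway and were picked for the text, none was called at 4 days. Smad7, the inhibitory Smad, had 68.6 and 50.2 CPM untreated and 129 and 68.6 CPM with TGFβ (log2 fold change 0.67, adjusted p = 0.243), TGFβ replicate 2 being almost equal to untreated replicate 1. It was called higher in fl/fl, ΔC/- and D164A/fl cells (log2 fold changes 1.56, 1.33 and 1.57), with no difference called. Skil, a Smad co-repressor, had 145 and 122 CPM untreated and 203 and 153 CPM with TGFβ (log2 fold change 0.40), and Pmepa1, a membrane inhibitor of Smad signaling, had 699.5 and 340.3 CPM untreated and 1143 and 603 CPM with TGFβ (log2 fold change 0.76), with overlapping groups.

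Of 20 tested EMT transcription factors, 2 were called higher and 1 lower (15%, against 7.74% of all genes), with a median of 0.45. The balance turned toward lower calls with a pseudocount of 0.1 and with edgeR, as given at the end. Hmga2, an architectural chromatin protein, had 145 and 150.0 CPM untreated and 791 and 902 CPM with TGFβ (log2 fold change 2.51, adjusted p = 0.0126). Foxc2, a forkhead factor, had 10.3 and 5.71 CPM untreated and 18.6 and 21.1 CPM with TGFβ (log2 fold change 1.25). Sox9 had 142 and 147 CPM untreated and 47.2 and 64.4 CPM with TGFβ (log2 fold change -1.37). Hmga2 missed the call without untreated replicate 1 (log2 fold change 2.49), untreated replicate 2 (2.54), TGFβ replicate 1 (2.61) or TGFβ replicate 2 (2.42), so its fold change stayed close to that of all samples. Foxc2 missed it without untreated replicate 2 (0.88) or TGFβ replicate 2 (1.17). Sox9 missed it without untreated replicate 1 (-1.40), untreated replicate 2 (-1.35) or TGFβ replicate 1 (-1.15). Foxc2 was also not called with edgeR. The repressors of E-cadherin were not called: Zeb1 had 76.4 and 51.8 CPM untreated and 206 and 151 CPM with TGFβ (log2 fold change 1.47, adjusted p = 0.0735) and Zeb2 had 47.8 and 23.8 CPM untreated and 133 and 81.6 CPM with TGFβ (log2 fold change 1.59, adjusted p = 0.0899). Both were higher in both TGFβ samples without overlap, and Zeb1 was called in a fit of the compared samples alone and with a GC trend removed. With the replicate number as a block, Zeb1, Zeb2 and Snai2 gained a call. Snai1 had 4.76 and 9.84 CPM untreated and 10.6 and 11.9 CPM with TGFβ, Snai2 had 20.4 and 10.9 CPM untreated and 58.1 and 20.7 CPM with TGFβ and Twist1 had 12.4 and 11.1 CPM untreated and 12.5 and 16 CPM with TGFβ. Their log2 fold changes were 0.63, 1.17 and 0.25, with adjusted p-values of 0.824, 0.312 and 0.73.

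Among 16 tested mesenchymal markers 6 were called higher and 1 lower (43.75%, against 7.74% of all genes), with a median of 1.07. Besides Acta2, Tagln, Fn1, Itga5 and Itgb3 the sixth was Cdh2, N-cadherin, with 107 and 79 CPM untreated and 254 and 222 CPM with TGFβ (log2 fold change 1.36, adjusted p = 0.0366), not called with edgeR. Vimentin, Vim, had 1281 and 1288 CPM untreated and 2567 and 2660.3 CPM with TGFβ, close replicates in both conditions, and was not called (log2 fold change 1.02, adjusted p = 0.599). Its standard error of 0.77 came from all conditions, among them ΔC/fl cells of the Wnt3a experiment, with 1046 and 2838 CPM untreated. The missed call is thus no sign that Vim did not respond. Pdgfra, the gene lower, had 239 and 90.9 CPM untreated and 40.4 and 62.5 CPM with TGFβ (log2 fold change -1.53). Cdh2 missed the call without untreated replicate 1 (adjusted p = 0.0711), untreated replicate 2 (0.293), TGFβ replicate 1 (0.249) or TGFβ replicate 2 (0.0991) and Pdgfra without untreated replicate 1 (0.486) or TGFβ replicate 1 (0.275). Some of these markers were already high before TGFβ: untreated Vim was 38.2 and 49.8 CPM in fl/fl, 18.2 and 25 CPM in ΔC/- and 18.7 and 27.7 CPM in D164A/fl cells, and untreated Zeb1 was 4.63 and 3.67, 3.49 and 3.4 and 1.73 and 1.42 CPM. The ΔC/fl values before treatment stood far above these for both genes, a difference that was not tested. Vim and Zeb1 were called higher in fl/fl (3.63 and 3.43) and ΔC/- cells (3.36 and 2.23) and Zeb2 in fl/fl cells (2.32), with no difference from ΔC/fl cells called.

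Of 44 tested Wnt pathway genes and targets 3 were called higher and 8 lower (25%, against 7.74% of all genes). The median was -0.13. Axin2, the general target of β-catenin with Lef/Tcf factors, had 7.12 and 2.16 CPM untreated and 1.12 and 0.425 CPM with TGFβ (log2 fold change -1.54, adjusted p = 0.0408). Notum, a secreted enzyme that inactivates Wnt ligands, had 106 and 180.5 CPM untreated and 3.11 and 7.15 CPM with TGFβ (log2 fold change -4.59). Nkd2, a feedback inhibitor, had 158 and 82.7 CPM untreated and 13.5 and 12.6 CPM with TGFβ (log2 fold change -3.04). All were lower in both TGFβ samples; Axin2 was low throughout and was not called with edgeR. Wnt4, a ligand of the mammary gland, had 16.5 and 16.4 CPM untreated and 0.34 and 2.13 CPM with TGFβ (log2 fold change -3.09). Ccnd1, cyclin D1, had 881 and 1668 CPM untreated and 326 and 621 CPM with TGFβ (log2 fold change -1.43), so its untreated values were unequal and both TGFβ values lay below them. It was also the only 1 of 37 cell cycle genes to be called (2.7%, against 7.74% of all genes). Axin2 missed the call without untreated replicate 1 (adjusted p = 0.59), TGFβ replicate 1 (0.0853) or TGFβ replicate 2 (0.287) and Ccnd1 without untreated replicate 2 (0.296) or TGFβ replicate 1 (0.338).

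Against this direction, Dkk2, a secreted Wnt antagonist, had 0.04 and 0.0317 CPM untreated and 10.5 and 13.5 CPM with TGFβ (log2 fold change 3.64, adjusted p = 2.11e-22). It rose from at most 1 read to a clear level in both samples. Its small p-value also rests on conditions such as untreated fl/fl cells, where it had no reads. Lef1, a nuclear partner of β-catenin, had 3.56 and 1.68 CPM untreated and 11.4 and 8.21 CPM with TGFβ (log2 fold change 1.61) and was not called with edgeR. Lef1 missed the call without untreated replicate 2 (adjusted p = 0.101) or TGFβ replicate 1 (0.0685). Myc had 139 and 121 CPM untreated and 274 and 135 CPM with TGFβ with overlapping groups (adjusted p = 0.67). The co-activators Bcl9 and Bcl9l had 52.6 and 44.4 CPM untreated and 41.3 and 43.4 CPM with TGFβ and 113 and 156 CPM untreated and 62.7 and 56.5 CPM with TGFβ, and neither was called (adjusted p = 0.944 and 0.602).

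Of 25 targets of Yap and Tead 4 were called higher and 1 lower (20%, against 7.74% of all genes), with a median of 0.22. Ankrd1 had 150.3 and 141 CPM untreated and 1033 and 695 CPM with TGFβ (log2 fold change 2.53), Ccn1 had 217 and 199 CPM untreated and 1089 and 504 CPM with TGFβ (log2 fold change 1.83) and Rbms3, an RNA-binding protein, had 13 and 4.98 CPM untreated and 24.9 and 18.7 CPM with TGFβ (log2 fold change 1.31). Ankrd1 missed the call without untreated replicate 2 (adjusted p = 0.0574) or TGFβ replicate 1 (0.114), Ccn1 without untreated replicate 1 (0.0512), untreated replicate 2 (0.0804) or TGFβ replicate 1 (0.306) and Rbms3 without untreated replicate 2 (0.666), TGFβ replicate 1 (0.358) or TGFβ replicate 2 (0.0807). Rbms3 was also not called with edgeR. Of 13 Notch pathway genes 2 were higher and 2 lower (30.8%, against 7.74% of all genes), with a median of -0.64. The ligand Jag1 had 23.2 and 17.4 CPM untreated and 243 and 121 CPM with TGFβ (log2 fold change 3.04) and the target Hes1 had 14 and 13.6 CPM untreated and 33.5 and 30.8 CPM with TGFβ (1.16). The receptors went down, Notch1 with 123 and 143 CPM untreated and 18.6 and 23.8 CPM with TGFβ (log2 fold change -2.60) and Notch3 with 7.76 and 8.13 CPM untreated and 0.584 and 1.11 CPM with TGFβ (-2.29). Hes1 missed the call without untreated replicate 2 (adjusted p = 0.0503) or TGFβ replicate 1 (0.0739), Notch1 without untreated replicate 1 (0.058), untreated replicate 2 (0.0957) or TGFβ replicate 1 (0.127) and Notch3 without untreated replicate 1 (0.0632), untreated replicate 2 (0.0778) or TGFβ replicate 1 (0.134).

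Of 35 growth factors and feedback genes 5 were called higher and 5 lower (28.6%, against 7.74% of all genes), with a median of -0.02. Pdgfa, a ligand of the receptor Pdgfra that fell, had 14.8 and 23.6 CPM untreated and 184 and 97.9 CPM with TGFβ (log2 fold change 2.78). Spry4, an inhibitor of receptor tyrosine kinase signaling, had 0.28 and 0.19 CPM untreated and 6.32 and 4.85 CPM with TGFβ (log2 fold change 2.41). Epgn, an EGF-family ligand, had 15 and 27.6 CPM untreated and 0.875 and 1.62 CPM with TGFβ (log2 fold change -3.27). The first 2 rose and Epgn fell, all without overlap. Fgfbp1, which carries fibroblast growth factors, had 84.2 and 106 CPM untreated and 13.7 and 20.9 CPM with TGFβ (log2 fold change -2.41). Epgn missed the call without untreated replicate 2 (adjusted p = 0.0883) or TGFβ replicate 1 (0.0765) and Fgfbp1 without TGFβ replicate 1 (0.0502).

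Of 33 chemokines and cytokines 2 were called higher and 2 lower (12.1%, against 7.74% of all genes; median -0.24). Besides Il33, the interleukin 1 receptor antagonist Il1rn fell, with 17.8 and 19.6 CPM untreated and 4.57 and 4.42 CPM with TGFβ (log2 fold change -1.84). Csf2, the growth factor GM-CSF, had 0.12 and 0.0317 CPM untreated and 17.6 and 5.45 CPM with TGFβ (log2 fold change 3.35). Cxcl12, a stromal chemokine, had 29.5 and 12.9 CPM untreated and 71.2 and 61.5 CPM with TGFβ (log2 fold change 1.71). Both of the last rose, Csf2 from under 4 reads. Il1rn missed the call without untreated replicate 2 (adjusted p = 0.0754), TGFβ replicate 1 (0.0686) or TGFβ replicate 2 (0.0551) and Cxcl12 without untreated replicate 2 (0.466), TGFβ replicate 1 (0.233) or TGFβ replicate 2 (0.101). Cxcl12 was also not called with edgeR.

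The remaining lists gave 0 to 4 calls each. Among 31 interferon-stimulated genes only Ifit3 was called (3.23%, against 7.74% of all genes). It had 13.4 and 7.43 CPM untreated and 0.681 and 0.596 CPM with TGFβ (log2 fold change -2.75). Among 26 genes of glycolysis and hypoxia 2 were called higher and 1 lower (11.5%, against 7.74% of all genes). Ndrg1, a stress-responsive gene, had 234 and 132 CPM untreated and 949.7 and 350.3 CPM with TGFβ (log2 fold change 1.71), the hydroxylase Egln3 had 4.16 and 3.02 CPM untreated and 6.18 and 16.6 CPM with TGFβ (1.31) and carbonic anhydrase Car9 had 1.68 and 3.68 CPM untreated and 0.632 and 0.0851 CPM with TGFβ (-1.41). Egln3 and Car9 were low throughout, and Egln3 was not called with edgeR. Ndrg1 missed the call without untreated replicate 2 (adjusted p = 0.135) or TGFβ replicate 1 (0.318), Egln3 without untreated replicate 1 (0.0896), untreated replicate 2 (0.289) or TGFβ replicate 2 (0.61) and Car9 without untreated replicate 2 (0.145) or TGFβ replicate 2 (0.0842). Of the luminal and secretory genes, the milk protein Csn3 had 0.08 and 0.159 CPM untreated and 7.34 and 2.47 CPM with TGFβ (log2 fold change 2.27), the secreted Wfdc18 had 4.92 and 0.984 CPM untreated and 0.146 and 0 CPM with TGFβ (-1.68) and the estrogen receptor Esr1 had 12.7 and 6.41 CPM untreated and 1.99 and 2.94 CPM with TGFβ (-1.55). The calls of these 3 rested on low values. Csn3 missed the call without untreated replicate 1 (adjusted p = 0.168), untreated replicate 2 (0.15) or TGFβ replicate 1 (0.459), Wfdc18 without untreated replicate 1 (0.584), TGFβ replicate 1 (0.127) or TGFβ replicate 2 (0.155) and Esr1 without untreated replicate 1 (0.144) or TGFβ replicate 1 (0.0813). The leukocyte gene Lyz2, lysozyme, had 3.96 and 1.84 CPM untreated and 0.681 and 0.468 CPM with TGFβ (log2 fold change -1.26), and it was not called with edgeR. Lyz2 missed the call without untreated replicate 1 (log2 fold change -0.85). No gene was called by limma among 25 of cholesterol and fatty acid synthesis and 22 of endoplasmic reticulum stress, with medians of 0.07 and 0.43; at an unadjusted p under 0.05 there were 0 and 2, and edgeR called 0 and 0.

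The other genotypes had responses of their own to the same treatment, and no samples are shared between genotypes. In fl/fl cells 455 genes were called higher (3.31%) and 405 lower (2.94%), in ΔC/- cells 394 (2.86%) and 507 (3.69%), and in D164A/fl cells 344 (2.5%) and 121 (0.88%). Of the 446 genes called higher in ΔC/fl cells, 181 were also called higher in fl/fl cells (40.6%), 151 in ΔC/- cells (33.9%) and 75 in D164A/fl cells (16.8%). Of the 618 called lower, 178 were called lower in fl/fl cells (28.8%), 156 in ΔC/- cells (25.2%) and 20 in D164A/fl cells (3.24%). Opposite calls were found in those cells for 0, 3 and 3 of the 446 and for 5, 4 and 23 of the 618. In D164A/fl cells 23 of the 618 were thus called higher and 20 lower (3.24%), where 2.5% and 0.88% of all genes were. Seen from those genotypes, the shared genes were 39.8%, 38.3% and 21.8% of their higher calls and 44.0%, 30.8% and 16.5% of their lower calls. In all 4 genotypes 42 genes were called higher and 9 lower, while 207 and 335 were called in ΔC/fl cells and in none of the other 3. A call missed in another genotype is no test of a difference, which is given next.

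The differences between responses were tested as interactions in the same model; the 3 tests share the 4 ΔC/fl samples. Against fl/fl cells the response of ΔC/fl cells was called higher for 146 genes (1.06%) and lower for 224 (1.63%). Against ΔC/- cells it was higher for 224 (1.63%) and lower for 206 (1.5%). Against D164A/fl cells it was higher for 235 (1.71%) and lower for 507 (3.69%), so this was the comparison with the most differences, most of them toward a smaller rise or a deeper fall; 313 of the 507 genes were also called lower in ΔC/fl cells themselves. These numbers depend on the test more than the response itself does: edgeR on whole reads called 94, 118 and 407 genes in place of 370, 430 and 742. With edgeR 71 of the 407 against D164A/fl cells were higher and 336 lower, and 51 of the 118 against ΔC/- cells were higher and 67 lower, a turned balance. Leaving out 1 library moved the count against ΔC/- cells to 265 without ΔC/fl untreated replicate 1, to 235 and 254 without ΔC/- untreated replicate 1 or 2, and to 242 and 269 without ΔC/- TGFβ replicate 1 or 2. Against D164A/fl cells it was 483 without ΔC/fl TGFβ replicate 1, 409 without D164A/fl untreated replicate 1 and 450 without D164A/fl TGFβ replicate 2.

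Of the 38 junction genes, 11 were called lower in fl/fl, 4 in ΔC/- and 2 in D164A/fl cells, against 19 in ΔC/fl cells, and the medians of the log2 fold changes were -0.51, -0.03 and -0.03. Over all genes the shares called lower were 2.94%, 3.69% and 0.88%, against 4.49% in ΔC/fl cells. As tested differences, 3 of the junction genes were called lower and 1 higher against fl/fl cells, 8 and 0 against ΔC/- and 10 and 1 against D164A/fl cells. Over all genes the differences called lower were 1.63%, 1.5% and 3.69% in this order, and those called higher 1.06%, 1.63% and 1.71%. Epcam had 480.5 and 454 CPM untreated and 414 and 378 CPM with TGFβ in fl/fl cells. It had 379 and 404 CPM untreated and 466 and 516 CPM with TGFβ in ΔC/- and 378 and 444 CPM untreated and 513 and 581 CPM with TGFβ in D164A/fl cells. So its level was alike in the untreated cells of the 4 genotypes and was called lower in ΔC/fl cells only, with differences of -2.06, -2.62 and -2.71 on the log2 scale (adjusted p = 0.00244, 0.00012 and 4.26e-05), all called with edgeR as well. Cdh1 had 966 and 782 CPM untreated and 457 and 302 CPM with TGFβ in fl/fl cells, where it also fell (log2 fold change -1.22), and the difference of -1.20 was not called (adjusted p = 0.258). In ΔC/- cells it had 278 and 284 CPM untreated and 506 and 589 CPM with TGFβ and in D164A/fl cells 823 and 871 CPM untreated and 707 and 875 CPM with TGFβ, and the differences from these were -3.38 and -2.32, both also called with edgeR. Of the 21 epithelial factors, 9, 4 and 1 were called lower in fl/fl, ΔC/- and D164A/fl cells, in the order given. The difference was called lower for 0, 6 and 7 of them and higher for 1, 0 and 0, so no factor was called as a deeper fall than in fl/fl cells. The shares over all genes are those given above for the junction genes.

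**Figure D4:**
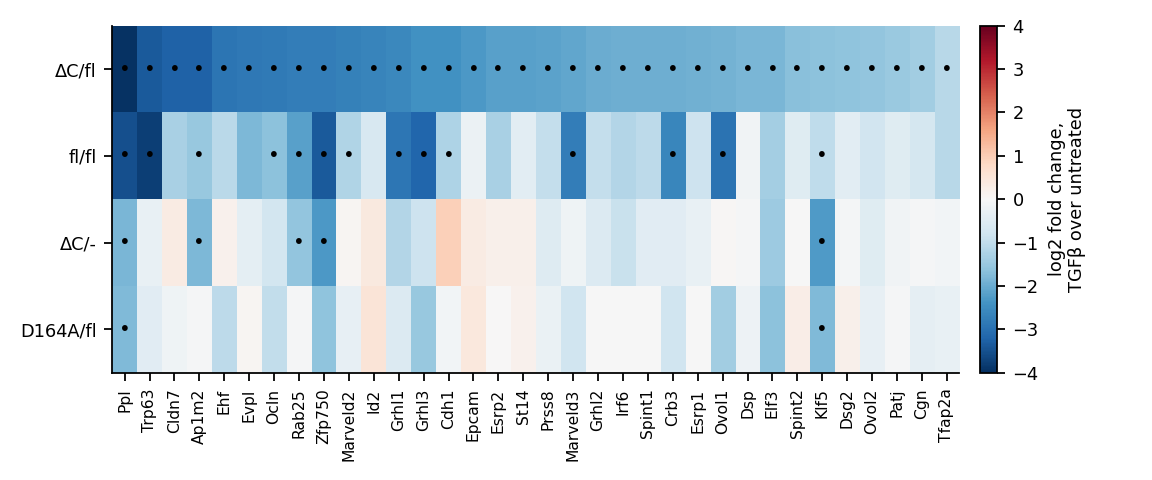
Log2 fold change (color, TGFβ over untreated, capped at 4 in both directions) of the junction and epithelial factor genes called lower in ΔC/fl cells, with 1 line of cells for each genotype. Dots mark a call within the genotype. The genes were picked by their call in ΔC/fl cells. Some, such as Grhl3 and Ovol1, had a larger measured fall in fl/fl cells, a difference that was not called.

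Tfcp2l1 differed between the genotypes in its untreated level as well as in its response. It had 32.3 and 32.3 CPM untreated and 4.92 and 1.88 CPM with TGFβ in fl/fl cells, 3.92 and 4.59 CPM untreated and 2.08 and 2.29 CPM with TGFβ in ΔC/- cells and 51.2 and 55.1 CPM untreated and 58.4 and 54.4 CPM with TGFβ in D164A/fl cells. It fell in fl/fl cells less than in ΔC/fl cells and was not called in ΔC/- and D164A/fl cells, with differences of -2.83, -5.12 and -5.92, all called with edgeR too. From its low untreated level in ΔC/- cells only a small fall could be measured on the log2(CPM + 1) scale. Ncmap, a membrane protein of myelinating cells, had 20.6 and 28.5 CPM untreated and 1.65 and 0.681 CPM with TGFβ in ΔC/fl cells and fell (log2 fold change -3.58), while it had 1.31 and 1.7 CPM untreated and 19.4 and 22.2 CPM with TGFβ in D164A/fl cells and rose (log2 fold change 3.12). The differences were -4.26, -3.31 and -6.70. Slc6a2, the noradrenaline transporter, likewise had 194 and 48.8 CPM untreated and 5.45 and 14.1 CPM with TGFβ in ΔC/fl cells (log2 fold change -3.32) and 0.0708 and 0.225 CPM untreated and 6.94 and 8.19 CPM with TGFβ in D164A/fl cells (2.90), opposite directions with a difference of -6.22. Its difference from ΔC/- cells was -3.37, not called with edgeR. It had 0.272 and 0.126 CPM untreated and 0.424 and 0.079 CPM with TGFβ in ΔC/- cells, so that value restates the change in ΔC/fl cells.

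For Inmt and Cyp2f2 the comparison with fl/fl and D164A/fl cells is limited by their levels there. Inmt had 0 and 0.0374 CPM untreated and 0 and 0 CPM with TGFβ in fl/fl and 0 and 0 CPM untreated and 0.297 and 0.0777 CPM with TGFβ in D164A/fl cells, values with nothing to lose, and 4.35 and 4.22 CPM untreated and 0 and 0.0395 CPM with TGFβ in ΔC/- cells, where it fell as well (-2.37). The differences on the log2(CPM + 1) scale were -7.35, -5.01 and -7.62, and only the last was called with edgeR. Cyp2f2 had 0.322 and 0.337 CPM untreated and 0 and 0.0368 CPM with TGFβ in fl/fl and 0.672 and 2.38 CPM untreated and 0.111 and 0.621 CPM with TGFβ in D164A/fl cells, with differences of -5.72 and -5.28, neither called with edgeR. In ΔC/- cells it had 14.9 and 18.8 CPM untreated and 0.424 and 0.118 CPM with TGFβ and fell as well (-3.82), with no difference called (adjusted p = 0.306).

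For smooth muscle genes the levels elsewhere matter too. Acta2 had 0.0403 and 0 CPM untreated and 0.621 and 0.405 CPM with TGFβ in fl/fl, 0 and 0 CPM untreated and 0.386 and 0.158 CPM with TGFβ in ΔC/- and 0.0708 and 0.0322 CPM untreated and 0.148 and 0.0777 CPM with TGFβ in D164A/fl cells, so none of these 3 genotypes passed 1 CPM. The differences of the responses were 4.09, 4.31 and 4.57 on the log2(CPM + 1) scale, but none was called with edgeR, and that from ΔC/- cells had the opposite sign there (-0.55). Tagln stayed under 1 CPM in every sample of the other 3 genotypes, with differences of 3.92, 4.22 and 4.44, the latter 2 called with edgeR. For Actg2, also under 1 CPM elsewhere, they were 3.73, 3.92 and 4.02, none called with edgeR. Kcnmb1 had 0 reads in all 12 samples of the other genotypes, so a difference of responses has no meaning there. Among the 4 genotypes given, these genes thus passed 1 CPM with TGFβ in ΔC/fl cells alone. Of these genotypes ΔC/fl cells also had the highest sum of fibroblast markers when untreated, and a link was not tested. Other contractile genes were not limited in this way: Palld was called higher in ΔC/- cells too (log2 fold change 4.03), 1 of 4 of the list there, and not in fl/fl or D164A/fl cells (0.63 and -0.01).

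**Figure D5:**
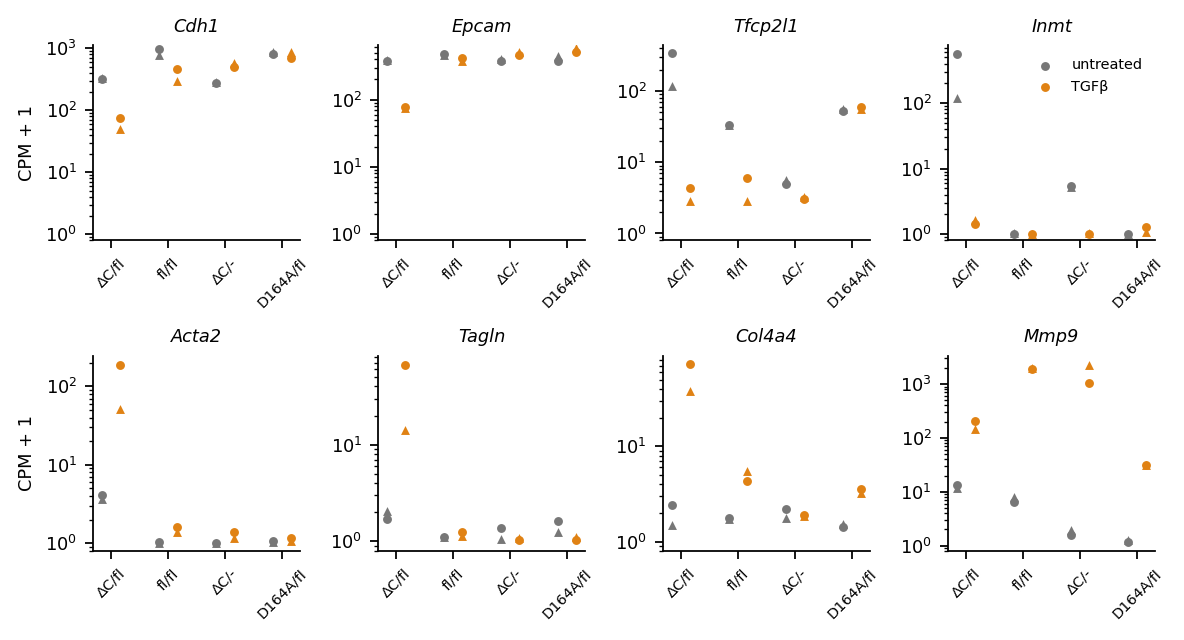
CPM + 1 on a log axis of 8 genes in the untreated (gray) and TGFβ (orange) samples of 4 genotypes, circles for replicate 1 and triangles for replicate 2. Epcam falls most in ΔC/fl cells, Acta2 and Tagln pass 1 CPM there alone, and Mmp9 rises in all 4 genotypes, least by level in D164A/fl cells.

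Col4a4 was raised most in ΔC/fl cells. It had 0.765 and 0.711 CPM untreated and 3.28 and 4.52 CPM with TGFβ in fl/fl, 1.2 and 0.787 CPM untreated and 0.887 and 0.869 CPM with TGFβ in ΔC/- and 0.425 and 0.547 CPM untreated and 2.52 and 2.21 CPM with TGFβ in D164A/fl cells, and the differences of 3.30, 4.86 and 3.60 were all called with edgeR as well. St8sia2 had 0.0403 and 0 CPM untreated and 16.5 and 10.3 CPM with TGFβ in fl/fl cells and less than 1 CPM in every sample of the other 2 genotypes. Its differences were 1.46, 5.22 and 5.11; with edgeR none was called, and that from fl/fl cells had the opposite sign (-3.35); fl/fl cells started from 1 read or less. Col5a3 rose in fl/fl and ΔC/- cells too (log2 fold changes 6.22 and 4.84) but had 0.0354 and 0.0322 CPM untreated and 0.0371 and 0.233 CPM with TGFβ in D164A/fl cells, a difference of 4.94 that edgeR did not call.

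Mmp9 is the reverse case, in which ΔC/fl cells responded less. It had 5.35 and 7.04 CPM untreated and 1922 and 1949 CPM with TGFβ in fl/fl and 0.582 and 0.944 CPM untreated and 1061 and 2293 CPM with TGFβ in ΔC/- cells, several times the treated level of ΔC/fl cells, with differences of -4.28 (adjusted p = 0.047, not called with edgeR) and -6.00 (called with edgeR too). Il11, a cytokine often induced by TGFβ, had 1.04 and 0.762 CPM untreated and 1.36 and 2.04 CPM with TGFβ in ΔC/fl and 2.94 and 3.41 CPM untreated and 116 and 264 CPM with TGFβ in fl/fl cells, a difference of -4.90 (adjusted p = 2.08e-07), also called with edgeR. Of the 4 genotypes only fl/fl cells had a called rise.

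Some differences came from genes that fell in other genotypes and not in ΔC/fl cells. Cbr2, a carbonyl reductase, had 55.1 and 48.7 CPM untreated and 61.7 and 36.6 CPM with TGFβ in ΔC/fl and 85.4 and 53.1 CPM untreated and 1.82 and 2.32 CPM with TGFβ in fl/fl cells, a difference of 4.36. Inhbb, the activin βB subunit, had 52.2 and 35.9 CPM untreated and 91.5 and 65.1 CPM with TGFβ in ΔC/fl and 54.7 and 20.8 CPM untreated and 2 and 3.27 CPM with TGFβ in fl/fl cells, a difference of 4.10. Both fell in fl/fl cells, while in ΔC/fl cells Cbr2 overlapped between the conditions and Inhbb was higher in both TGFβ samples without a call (log2 fold change 0.82), and both differences were called with edgeR as well. Tenm4, a teneurin of cell-cell adhesion, had 24.3 and 9.94 CPM untreated and 49.9 and 234 CPM with TGFβ in ΔC/fl cells, where TGFβ replicate 2 was more than 4 times replicate 1 (log2 fold change 2.72). Tenm4 missed the call without untreated replicate 2 (adjusted p = 0.279) or TGFβ replicate 2 (0.422). In fl/fl cells it had 44.6 and 20.8 CPM untreated and 10.2 and 11.2 CPM with TGFβ and in ΔC/- cells 27.2 and 23.9 CPM untreated and 0.695 and 0.632 CPM with TGFβ, with differences of 4.16, not called with edgeR, and 6.71, called with it.

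Counting genes called in ΔC/fl cells whose difference was called in the same direction against all 3 genotypes, which share the ΔC/fl samples, gave 42 genes higher and 62 lower. With edgeR all 3 differences were called for 2 of the 42 and 12 of the 62. For 22 and 17 of them every sample of the other 3 genotypes was under 1 CPM, Acta2, Tagln, Actg2 and Il33 among these, so the difference there restates the change in ΔC/fl cells. Col4a3, Col4a4, Acta2, Tagln, Actg2, Moxd1, Ctsf and Dkk2 were among the former and Inmt, Tfcp2l1, Mgp, Il33, Bmp4, Ap1m2, Epcam and Dsp among the latter. The measured response of these cells to TGFβ joined a rise of the RNAs of Mmp10, Mmp12, Mmp13, Tnc, smooth muscle actin and 8 of 25 collagens to a fall of other RNAs. Among the latter were E-cadherin, Epcam, 3 of the 25 collagens and the grainyhead-like and Esrp factors. Smad7, Vim, Snai1 and Twist1 were not called. For Vim that is no sign of an absent response, since its log2 fold change was 1.02 with close replicates.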

How the data were processed

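RNA of 56 samples in 28 conditions was sequenced, and 4 samples give the response described. Per the submitters' notes, the authors prepared stranded libraries, mapped reads to mm10 with STAR and counted unique hits in annotated exons; strand use in counting is not stated. The deposited values are a signal, read counts divided by an effective library size in M reads (CPM). Whole reads were recovered for 100% of values with a tolerance of 0.001 reads, with factors of 0.81 to 1.14; depth was 22.4 to 33.7 M reads (median 26.8 M), so a gene at 1 CPM had at least 20 reads. All columns were mapped to labels.

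Values were tested with limma 3.58.1 in R 4.3.3 (lmFit, contrasts.fit, eBayes with trend) on log2(CPM + 1), with a coefficient for each condition, for the 13754 of 20314 genes that reached 1 CPM in 2 samples or more. All 56 samples entered the fit, so each gene had 1 spread for all conditions. Adjustment was by Benjamini-Hochberg, and a call needed adjusted p ≤ 0.05 and a change of 2-fold or more. Differences between genotypes were interaction terms. The procedure was tested on simulated data, and no result of that test is given or used here. Alternatives were a pseudocount of 0.1, no filter, median-of-ratios scaling, edgeR 4.0.16 on whole reads, a fit of the compared samples alone, a GC trend removed, a block for replicate number, an unadjusted p of at most 0.05 with a fold of 1.5, each sample left out in turn and, chosen after seeing the data, the 28 TGFβ samples alone and crossed replicate numbers in ΔC/- cells. Tables and figures used Python 3.11.15, pandas 2.3.3, numpy 2.4.6 and matplotlib 3.10.9.

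Genes were named by rule: the 10 largest called increases and decreases with separate replicates and a mean of at least 5 CPM in the higher condition, the 4 called genes of each of 28 lists with the largest change, the 3 largest differences in each direction against each genotype, and classical EMT and Wnt genes; other members of these lists were named to describe them. One gene of a list is not reported. Members and lists were chosen with earlier results of these data known. Promoters came from RefSeq (GRCm38.p6, 27025 genes), the window furthest upstream for each gene. The leukocyte marker Tyrobp was not analysed here.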

Additional observations from a re-analysis of the deposited data

Results flagged for a closer look

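The response to TGFβ differed between ΔC/fl cells and at least 1 other genotype, by an interaction test (adjusted p ≤ 0.05, difference of 1 or more in either direction), for the genes below. Each value is the log2 fold change in ΔC/fl cells minus that in the other cells, and the tests share the 4 ΔC/fl samples. Differences toward a greater rise or a smaller fall were those of St8sia2 1.46 from fl/fl, 5.22 from ΔC/- and 5.11 from D164A/fl, of Col5a3 4.94 from D164A/fl, of Col4a4 3.30 from fl/fl, 4.86 from ΔC/- and 3.60 from D164A/fl, of Acta2 4.09 from fl/fl, 4.31 from ΔC/- and 4.57 from D164A/fl, of Tagln 3.92 from fl/fl, 4.22 from ΔC/- and 4.44 from D164A/fl. Further ones were those of Actg2 3.73 from fl/fl, 3.92 from ΔC/- and 4.02 from D164A/fl, of Cbr2 4.36 from fl/fl, of Tenm4 4.16 from fl/fl and 6.71 from ΔC/-, of Inhbb 4.10 from fl/fl. Differences toward a smaller rise or a deeper fall were those of Inmt -7.35 from fl/fl, -5.01 from ΔC/- and -7.62 from D164A/fl, of Cyp2f2 -5.72 from fl/fl and -5.28 from D164A/fl, of Tfcp2l1 -2.83 from fl/fl, -5.12 from ΔC/- and -5.92 from D164A/fl, of Mmp9 -4.28 from fl/fl and -6.00 from ΔC/-. The others were those of Cdh1 -3.38 from ΔC/- and -2.32 from D164A/fl, of Epcam -2.06 from fl/fl, -2.62 from ΔC/- and -2.71 from D164A/fl, of Il11 -4.90 from fl/fl, of Ncmap -4.26 from fl/fl, -3.31 from ΔC/- and -6.70 from D164A/fl, of Slc6a2 -3.37 from ΔC/- and -6.22 from D164A/fl. With edgeR on whole reads 23 of these 41 differences were called as well and 16 were not, and the 2 with another sign are given below; most of the 16 concern genes under 1 CPM in the other genotype. Acta2, Tagln and Actg2 were under 1 CPM in all samples of the other 3 genotypes, and Inmt in those of fl/fl and D164A/fl cells. The same held for St8sia2 in ΔC/- and D164A/fl, Col5a3 in D164A/fl, Cyp2f2 in fl/fl and Slc6a2 in ΔC/- cells. In all these cases the value restates the change in ΔC/fl cells and is no evidence of another kind of response. Conditions of 2 samples are too small to look for a sample far from the others.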

How the results depend on the processing

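The number of genes called in the TGFβ response of ΔC/fl cells, 1064, was within 1.5 times of that number with a pseudocount of 0.1 (1199), no filter (1009), median-of-ratios scaling (1079), edgeR (976), only the samples compared (863) and a GC trend removed (1270). It moved to 2250 at an unadjusted p of at most 0.05 and 1.5-fold, a looser rule by construction. Leaving out 1 of the 4 samples gave 605 to 956, the lowest without TGFβ replicate 1; the sample left in the condition was then taken to vary like the other groups.

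The counts of differences moved more. In the order fl/fl, ΔC/- and D164A/fl they were 370, 430 and 742, became 94, 118 and 407 with edgeR and 1325, 1683 and 2108 with the looser rule. A pseudocount of 0.1 gave 236 against fl/fl cells, and only the samples compared gave 213 against fl/fl and 1273 against D164A/fl cells. The log2 fold changes correlated with GC content at a Spearman rho of -0.0327 in ΔC/fl, 0.00115 in fl/fl, 0.1 in ΔC/- and 0.357 in D164A/fl cells. With a GC trend removed the count against D164A/fl cells was 1035. The 28 samples of the TGFβ experiment alone, chosen after seeing the data, gave 768, 1160 and 1692, and 1478 for the response itself. The balance against ΔC/- cells, 224 higher and 206 lower, turned with edgeR (51 and 67), only the samples compared (238 and 317), a GC trend removed (245 and 317) and the 28 samples (559 and 601), and without ΔC/fl untreated replicate 2 (148 and 195) or ΔC/- TGFβ replicate 1 (119 and 123). The cause of these shifts was not tested. Leaving out 1 library gave 247 to 328, 235 to 368 and 409 to 674.

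With the replicate number as a block, a pairing that the labels give by number only, the response had 1407 calls and the differences 782, 1123 and 1502. Across genes, the replicate differences of the 2 conditions correlated at 0.46 in ΔC/fl, 0.66 in fl/fl, -0.197 in ΔC/- and 0.58 in D164A/fl cells. The block together with a GC trend removed gave 1503 for the response and 1062, 1441 and 1855 for the differences. Crossing the replicate numbers of ΔC/- cells in the block, chosen after seeing the data, gave 1109 in place of 1123. With the block Zeb1, Zeb2 and Snai2 gained a call, and with a GC trend removed as well Mmp3 and Tgfbr1 did too.

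Of 140 named genes 121 were called, and 66 of these were called under every alternative run; for 55 the call was missed under at least 1, for 20 of them only on leaving out a sample. With only the samples compared, 27 lost the call (Plau, Fbn1, Fn1, Thbs1, Col1a1, Col3a1, Trp63, Zfp750, Fstl1, Ccn2, Bhlhe40, Tgif1, Foxc2, Pdgfra, Axin2, Lef1, Ccnd1, Rbms3, Cxcl12, Ndrg1, Car9, Egln3, Esr1, Lyz2, Tenm4, Slc6a2 and Crb3). With edgeR 14 did, with a pseudocount of 0.1 7 (Col3a1, Col6a1, Col6a2, Axin2, Rbms3, Cxcl12 and Egln3), with no filter 7 (Cnn2, Axin2, Rbms3, Cxcl12, Egln3, Csn3 and Itgb4), with a GC trend removed 2 (Foxc2 and Egln3) and with median-of-ratios scaling 1 (Rbms3). Calls were also gained among the 19 genes not called: Mmp3, Tgfbr1, Zeb1 and Bcl9l with only the samples compared, Tgfbr1 and Zeb1 with a GC trend removed, Tgfbr1, Zeb1 and Zeb2 with the 28 samples, and these with Mmp3 and Smad7 under the looser rule. On leaving out a sample 2 genes that were not called reversed: Mki67 ranged from -2.66 to 0.12, above 0 without TGFβ replicate 1, and Cbr2 from -0.49 to 0.25, above 0 without TGFβ replicate 2. Among the differences, St8sia2 against fl/fl cells reversed with a pseudocount of 0.1 (-1.11) and with edgeR (-3.35), and Acta2 against ΔC/- cells with edgeR (-0.55); the untreated samples of the other genotype held at most 1 read in each case. The balance of small lists also turned: 5 members of the TGFβ family were called with only the samples compared, 2 higher and 3 lower. For EMT factors the calls were 5 with a pseudocount of 0.1 (2 higher, 3 lower), 4 with edgeR (1 higher, 3 lower) and 0 to 1 on leaving out a sample, the 1 being lower without TGFβ replicate 2. Yap and Tead targets had 0 to 3 calls on leaving out a sample and 1, lower, without untreated replicate 2. At these depths a gene with fewer than 3 reads has no level.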
